A study of Mus musculus with 8 samples.

Results

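The chromatin accessible in cells named Prog-like was set against the chromatin accessible in cells named EpCAM-high, both from the set labelled CK19 of a mouse liver tumour study. Overlapping peaks of the Prog-like CK19 list and of the EpCAM-high CK19 list (at least 1 bp shared) were merged into regions, and each region was classed by the list or lists that had a peak in it. The comparison held 106385 regions, of 138775 that result when all 5 lists of the series are merged. The 71375 Prog-like peaks covered 44.6 Mb with a median width of 520 bp, and the 56932 EpCAM-high peaks covered 30.8 Mb with a median width of 439 bp.

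The cells came from livers or macroscopic lesions of mice in which floxed alleles of the Rb family (the model is named as a triple knockout) had been recombined by Cre, with YFP marking the recombined cells. All sample groups come from that model, so the series holds no group from mice without the floxed alleles. Loss of the Rb family in the cells of either list could not be checked. YFP-positive cells were sorted by the surface proteins Thy1 and EpCAM and taken through ATAC-seq, in which a transposase inserts sequencing adapters into open DNA. The 8 samples are labelled EpCAM high with CK19 (2), EpCAM high with Sox9 (1), Thy1 positive with CK19 (2), Thy1 positive with Sox9 (1) and EpCAM negative (2). No sample label uses the name Prog-like or Tumor, so the Prog-like lists and the Tumor list could be tied to no sample group. The labels also give neither the promoter that drives Cre nor the ages, treatments or number of animals. Each condition came as 1 peak list with no replicate, so no difference between the lists could be tested, and the intervals printed with shares are exact Clopper-Pearson 95% intervals that cover counting error only.

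ATAC-seq peaks fall at promoters, which are open in most cell types, and at distal enhancers, which are mostly open in a few. The biliary epithelium lines the bile ducts, carries EpCAM and the keratins Krt7 and Krt19 and is held in its fate by factors such as Sox9. Kupffer cells are the macrophages of the liver sinusoid, where they take up particles and old red cells. Their genes depend on the factor PU.1, encoded by Spi1. The deposited files hold peaks and not reads, so the depth of the libraries is unknown. In bulk samples fewer cells of a type and less open chromatin per cell cannot be told apart.

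The names of the lists were first checked against marker genes. A gene was counted when a peak lay within 1000 bp of either of its ends, since the annotation used gives no strand. Over 21883 protein-coding genes, 57.4% had such a peak in the Prog-like list and 57.8% in the EpCAM-high list. Of 24 biliary and progenitor markers, 11 had one in the Prog-like list and 24 in the EpCAM-high list. Of 32 macrophage and Kupffer cell markers, 30 had one in the Prog-like list and 6 in the EpCAM-high list. The EpCAM-high list thus carried the markers of its name, while the list named Prog-like carried 30 of the 32 macrophage markers and 45.8% of the biliary markers, with an interval (25.6 to 67.2%) that includes its share over all genes. Prog-like is used below only as the name of that list.

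Promoters and microRNAs at the centre of the contrast are printed first, all from RefSeq tables of the mouse build GRCm38.p6, which has the coordinates of mm10. Each promoter is the 250 bases before an annotated start of a gene, and the start used for Fyb lies inside the gene. The 3 genes per direction are those of the gene lists with the largest difference in peaks whose single-list peak covered the whole promoter window. Capitals mark the letters GGGCGG (bound by SP and KLF factors) and CCAAT (bound by NF-Y) on either strand. The Prog-like promoters were those of Fyb, an adaptor of leukocyte signalling, Vsig4, a complement receptor of Kupffer cells, and Mrc1, the macrophage mannose receptor.
Fyb (chr15:6579597-6579846, + strand): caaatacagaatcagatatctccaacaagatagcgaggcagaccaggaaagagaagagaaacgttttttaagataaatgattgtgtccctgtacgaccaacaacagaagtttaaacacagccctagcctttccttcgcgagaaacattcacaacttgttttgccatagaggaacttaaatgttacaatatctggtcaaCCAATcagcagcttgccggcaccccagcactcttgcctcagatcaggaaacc
Vsig4 (chrX:96293439-96293688, - strand): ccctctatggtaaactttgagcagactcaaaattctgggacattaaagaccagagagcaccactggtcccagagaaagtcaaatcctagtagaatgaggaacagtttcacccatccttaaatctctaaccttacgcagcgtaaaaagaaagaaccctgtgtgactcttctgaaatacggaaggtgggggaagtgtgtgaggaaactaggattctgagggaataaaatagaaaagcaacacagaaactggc
Mrc1 (chr2:14229164-14229413, + strand): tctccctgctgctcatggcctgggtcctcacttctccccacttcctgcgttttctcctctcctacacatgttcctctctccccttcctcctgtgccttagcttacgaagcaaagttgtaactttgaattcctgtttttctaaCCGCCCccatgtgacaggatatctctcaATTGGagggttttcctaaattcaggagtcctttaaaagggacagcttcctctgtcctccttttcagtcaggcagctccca
The EpCAM-high promoters were those of Nr5a2, a nuclear receptor of endoderm-derived epithelia, Cftr, the chloride channel of bile duct cells, and Reln, a secreted matrix protein.
Nr5a2 (chr1:136960449-136960698, - strand): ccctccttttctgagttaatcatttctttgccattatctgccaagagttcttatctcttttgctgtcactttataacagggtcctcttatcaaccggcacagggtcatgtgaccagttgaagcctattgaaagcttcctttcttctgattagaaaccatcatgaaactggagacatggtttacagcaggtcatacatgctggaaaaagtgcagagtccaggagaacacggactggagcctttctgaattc
Cftr (chr6:18170437-18170686, + strand): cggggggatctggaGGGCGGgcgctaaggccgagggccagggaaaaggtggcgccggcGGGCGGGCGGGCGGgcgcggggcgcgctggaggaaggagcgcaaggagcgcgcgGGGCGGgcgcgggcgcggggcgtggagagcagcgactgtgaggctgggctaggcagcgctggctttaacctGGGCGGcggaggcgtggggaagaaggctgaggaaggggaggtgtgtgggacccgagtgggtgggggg
Reln (chr5:22344706-22344955, - strand): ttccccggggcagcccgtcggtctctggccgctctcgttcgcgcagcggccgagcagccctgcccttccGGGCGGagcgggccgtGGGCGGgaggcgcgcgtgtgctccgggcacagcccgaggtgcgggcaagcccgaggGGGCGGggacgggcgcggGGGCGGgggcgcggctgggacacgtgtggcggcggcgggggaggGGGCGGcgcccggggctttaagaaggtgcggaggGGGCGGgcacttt
No GGGCGG was found in the Fyb, Vsig4 and Nr5a2 stretches, against 6 matches each in Cftr and Reln, where those in Cftr partly overlap.

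Across all promoters the same letters were unequally spread. Of 21262 promoter windows of 300 bp, GGGCGG was held by 46.2%. It was found in 34.6% of the 1130 windows with a peak in the Prog-like list alone (31.8 to 37.5%) and in 52.6% of the 1341 windows with a peak in the EpCAM-high list alone (49.9 to 55.3%). The median GC content was 53.3% in the Prog-like windows and 58.7% in the EpCAM-high windows, against 62.3% in the 10130 windows open in both lists. GC content moves with GGGCGG by construction, and its part in the difference was not tested.

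The letters GAGGAAGT, a site of PU.1, were found in 8.32% of the Prog-like promoter windows (94 of 1130, 6.77 to 10.1%) and in 1.72% of the EpCAM-high ones (23 of 1341, 1.09 to 2.56%), against 3.13% of all windows. A composite motif of IRF and ETS factors was found in 4.42% of the Prog-like (3.302 to 5.792%) and 1.64% of the EpCAM-high windows (1.03 to 2.47%), against 2.53% of all. Among the genes named here by a fixed rule, 42 promoter windows of 37 genes were open in the Prog-like list alone, and 5 of those genes had GAGGAAGT, on either strand, in the 250 bases before the start. They are the lipid phosphatase gene Inpp5d of blood cells, the Toll-like receptor gene Tlr1, the GTPase regulator gene Arhgap25, and the genes S100a8 and Mmp8, which encode an alarmin and a collagenase of neutrophils. Capitals mark the letters.
Inpp5d (chr1:87620280-87620311, + strand): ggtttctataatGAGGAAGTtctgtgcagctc
Tlr1 (chr5:64933562-64933593, - strand): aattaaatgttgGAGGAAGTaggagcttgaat
Arhgap25 (chr6:87533286-87533317, - strand): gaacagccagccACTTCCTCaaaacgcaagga
S100a8 (chr3:90668887-90668918, + strand): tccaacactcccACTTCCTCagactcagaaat
Mmp8 (chr9:7558196-7558227, + strand): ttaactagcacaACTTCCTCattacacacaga
Arhgap25 also had a match at a start farther inside the gene, not printed here.

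In the other direction, the HNF4 letters CAAAGTCCA were found in 0.354% of the Prog-like (0.0965 to 0.904%) and 1.34% of the EpCAM-high windows (0.797 to 2.11%), against 0.452% of all, and these intervals overlap. The AP-1 letters TGANTCA were found in 9.38% of the Prog-like (7.74 to 11.2%) and 9.92% of the EpCAM-high windows (8.37 to 11.6%). Their share was 6.99% of all windows, 4.01% of those open in both lists and 9.71% of those open in neither. A match is a run of letters in a window and not a measured binding site.

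The microRNA loci were read in the same way, with a peak within 1000 bp of the hairpin. Of 1005 hairpins, 7.66% had such a peak in the Prog-like list alone, 4.88% in the EpCAM-high list alone, 10.6% in both and 76.8% in neither. Of 20 microRNAs listed for these tissues, 18 could be placed. Mir142, Mir146, Mir155 and Mir223, microRNAs of blood cells and of inflammation, had a peak in the Prog-like list alone. Mir200a, Mir200b, Mir429, Mir31, Mir34b, Mir34c and Mir375 had one in the EpCAM-high list alone. The mature forms of the Prog-like microRNAs are shown with the seed, bases 2 to 8, in capitals, and they share no seed.
miR-142a-3p: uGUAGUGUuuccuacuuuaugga
miR-155-5p: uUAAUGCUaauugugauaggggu
miR-146a-5p: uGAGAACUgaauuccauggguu
miR-223-3p: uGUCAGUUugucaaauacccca
A peak lay on the Mir142, Mir155 and Mir223 hairpins in the Prog-like list, while the nearest EpCAM-high peak was 6866 bp away at Mir142, 8978 bp at Mir155 and 135042 bp at Mir223. Mir223 lies 4274 bp from Vsig4 on the X chromosome, and its Prog-like peak was among those lost when the lists were made equally long.

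The miR-200 family, which holds down the Zeb factors and so keeps epithelial cells epithelial, is encoded in a pair of clusters. Its members fall into 2 groups by seed, AAUACUG for the first 3 shown and AACACUG for the last 2.
miR-200b-3p: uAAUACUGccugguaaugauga
miR-429-3p: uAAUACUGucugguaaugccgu
miR-200c-3p: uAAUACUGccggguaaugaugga
miR-200a-3p: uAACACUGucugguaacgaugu
miR-141-3p: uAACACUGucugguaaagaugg
The cluster of Mir200a, Mir200b and Mir429 on chromosome 4 had a peak in the EpCAM-high list alone, 85 bp from Mir200a, with the nearest Prog-like peak 4745 bp away. The cluster of Mir141 and Mir200c on chromosome 6 had a peak in both lists, 97 bp from Mir141 in the Prog-like and 21 bp in the EpCAM-high list, and it lies 968 bp from the housekeeping gene Phb2. Each seed group thus had a member near peaks of the EpCAM-high list alone and a member near peaks of both. Mir126a, Mir192, both Mir194 loci and Mir21a had no peak within 1000 bp in either list. Of the 11 loci with a peak in a single list, all 11 had one in the Sox9 list of the same name and none in the Sox9 list of the other name. Neighbouring hairpins, as in the Mir200a cluster or at Mir34b and Mir34c, can share a peak, so the 11 are not independent.

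Most regions belonged to a single list. Regions of the Prog-like list alone numbered 49923 (46.9% of the regions, 46.6 to 47.2%) and covered 26.3 Mb. Regions of the EpCAM-high list alone numbered 35245 (33.1%, 32.8 to 33.4%) and covered 15.1 Mb, and regions in both numbered 21217 (19.9%, 19.7 to 20.2%). The Prog-like list was then cut by the authors' −log10 p to 56932 peaks, the length of the EpCAM-high list. The 3 classes then held 38359, 37981 and 18491 regions, or 40.4%, 40.1% and 19.5%. At equal length the classes of a single list were nearly the same size, which the equal number of peaks largely sets in advance. The share in both changed by less than a percentage point.

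Regions in both lists were mostly single, centred peaks. Of them, 96.8% held 1 peak of each list, and in those the summits lay a median of 46 bp apart, with 72.6% within 100 bp. They were also wider, with a median of 908 bp, against 451 bp for regions of the Prog-like list alone and 354 bp for regions of the EpCAM-high list alone. A region in both is the union of at least 2 peaks, so its width is in part set by the merging.

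The classes lay in different places. Within 1000 bp of a gene end lay 5.82% of the Prog-like regions (5.62 to 6.03%) and 6.40% of the EpCAM-high regions (6.14 to 6.66%), against 47.3% of those in both. With a window of 2500 bp the order of the first 2 turned, with 11.6% of the Prog-like and 10.3% of the EpCAM-high regions. Prog-like regions lay mostly elsewhere in gene bodies, 51.4% of them against 38.5% of the EpCAM-high regions. Between genes lay 42.8% of the Prog-like regions (42.3 to 43.2%) and 55.1% of the EpCAM-high regions (54.5 to 55.6%). At equal length the shares between genes were 42.7% and 53.9%.

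**Figure D1:**
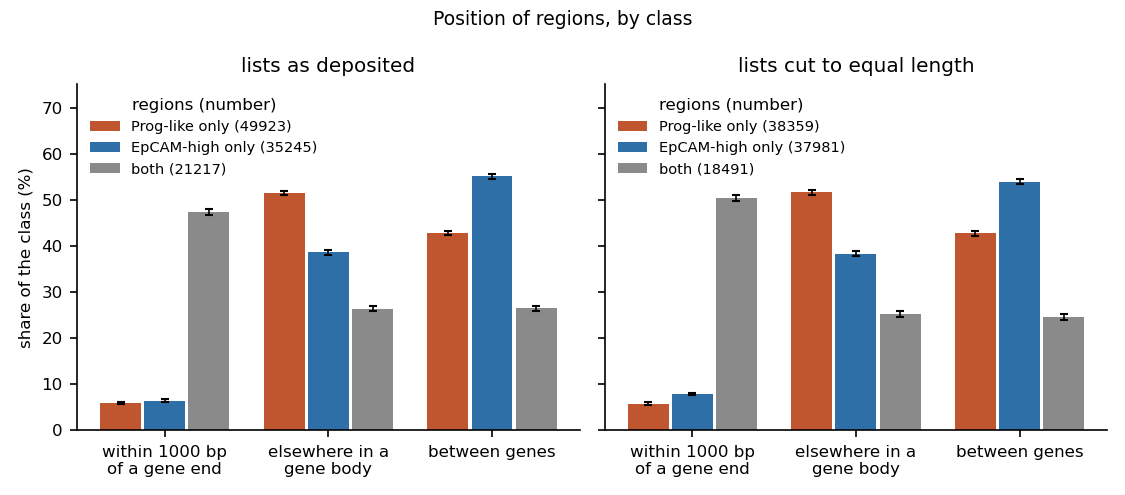
Share of regions (%) within 1000 bp of a gene end, elsewhere in a gene body and between genes, for regions of the Prog-like list alone, the EpCAM-high list alone and both, with the lists as deposited (left) and cut to equal length (right); bars are shares and whiskers exact 95% intervals. Regions in both lists reach 47.3% at gene ends, while 42.8% of the Prog-like and 55.1% of the EpCAM-high regions lie between genes.

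The distance to genes differed in the same direction. The median distance to the nearest gene end was 21.6 kb for Prog-like regions and 42.8 kb for EpCAM-high regions, against 2.03 kb for regions in both. Farther than 200 kb from any gene end lay 7.29% of the Prog-like and 20.9% of the EpCAM-high regions. Among peaks with −log10 q of 5 or more these shares were 6.22% and 11.6%, so the gap between the classes was smaller among strong peaks.

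Regions of one class lay near each other. At equal length, 62.1% of the Prog-like regions had another Prog-like region within 10 kb and 25.5% had an EpCAM-high region that near. Of the EpCAM-high regions, 45.1% had another EpCAM-high region within 10 kb and 22.5% had a Prog-like one. In 2534 windows of 1 Mb, also counted at equal length, Prog-like regions were the more numerous in 1134 and EpCAM-high regions in 1317. Windows with at least 10 regions and at least 10 times as many of one class as of the other numbered 23 for the Prog-like and 291 for the EpCAM-high regions.

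The 4 windows with the largest Prog-like excess held 4 to 17 genes each, of which 2 or 3 are given here, picked after the counts were seen. At chr16 33 to 34 Mb, with Itgb5 and Kalrn among 13 genes, 62 regions were of the Prog-like list alone and 7 of the EpCAM-high list alone. At chr1 131 to 132 Mb, with Il10 and Ikbke among 17, the counts were 68 and 14. At chr12 85 to 86 Mb, with Fos, Batf and Jdp2 among 17, they were 62 and 11. At chr13 37 to 38 Mb, with the clotting subunit gene F13a1 and the Toll-like co-receptor gene Ly86 among 4, they were 66 and 16.

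In the window with the largest EpCAM-high excess, chr7 70 to 71 Mb, which holds Nr2f2 and Gm44812 alone, 5 regions were of the Prog-like list and 60 of the EpCAM-high list. At chr10 108 to 109 Mb, with Pawr among 5 genes, the counts were 8 and 60. At chr16 88 to 89 Mb, with the claudin genes Cldn8 and Cldn17 beside a cluster of hair keratin-associated genes, they were 1 and 51. At chr6 18 to 19 Mb, with Cftr and Wnt2 among 6, they were 0 and 47. All these windows were chosen by their counts, and the gene content was compared with that of no other windows.

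Chromosomes differed little. At equal length the ratio of Prog-like to EpCAM-high regions ran from 0.808 on chromosome 19 and 0.845 on chromosome 3 to 1.15 on chromosome 17. Chromosome Y held no Prog-like and 1 EpCAM-high CK19 peak, against 22 in the Prog-like and 10 in the EpCAM-high Sox9 list.

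Strong peaks were the most often shared. In the strongest of 10 equal parts of each list, 68.3% of the Prog-like and 73.3% of the EpCAM-high peaks overlapped a peak of the other list. In the weakest part the shares were 21.9% of the Prog-like and 6.66% of the EpCAM-high peaks. The Prog-like share had its lowest value, 17.4%, in part 8. Gene-end peaks made up 52.5% of the strongest Prog-like and 49.3% of the strongest EpCAM-high part, against 10.7% and 4.43% of the weakest. Away from gene ends, 36.4% of the strongest Prog-like and 49.6% of the strongest EpCAM-high part were shared, against 17.8% and 5.66% of the weakest.

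**Figure D2:**
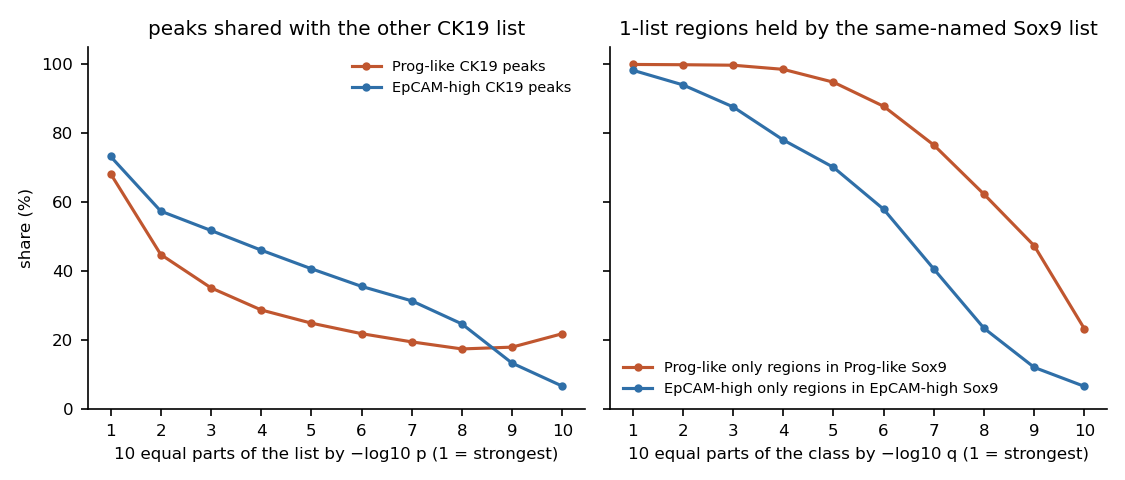
Left, share (%) of Prog-like and EpCAM-high CK19 peaks that overlap a peak of the other CK19 list, in 10 equal parts of the list from the strongest (1) to the weakest (10) −log10 p. Right, share (%) of the regions of a single list that overlap a peak of the Sox9 list of the same name, in 10 equal parts by −log10 q; it runs from 99.9% to 23.3% for Prog-like and from 98.3% to 6.58% for EpCAM-high regions.

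The classes were then read in the Sox9 lists, which had no part in defining them. Of the Prog-like regions, 79.0% (78.7 to 79.4%) overlapped a peak of the Prog-like Sox9 list, 5.52% (5.32 to 5.73%) a peak of the EpCAM-high Sox9 list and 4.63% (4.44 to 4.81%) a peak of the Tumor list. Of the EpCAM-high regions, 2.15% (2.00 to 2.31%) overlapped a peak of the Prog-like Sox9 list, 56.9% (56.4 to 57.4%) a peak of the EpCAM-high Sox9 list and 22.3% (21.9 to 22.7%) a peak of the Tumor list. Regions in both lists were found in the 3 other lists in 88.6%, 89.6% and 71.4% of cases. The Tumor list is shorter, with 39644 peaks against 67855 in the Prog-like and 59454 in the EpCAM-high Sox9 list. Its overlaps are therefore not on the same footing. The opposite pattern, a region of a single list found in the Sox9 list of the other name and not in its own, was seen in 0.773% of the Prog-like and 0.777% of the EpCAM-high regions.

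**Figure D3:**
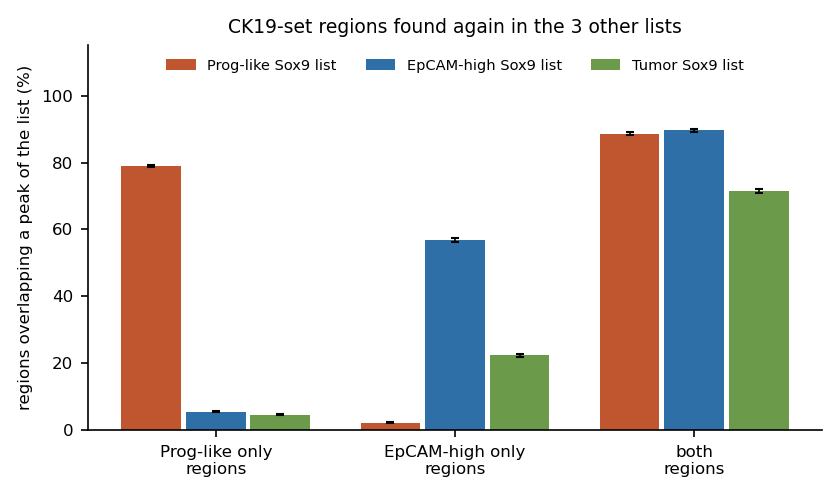
Share (%) of regions of the Prog-like list alone, the EpCAM-high list alone and both that overlap a peak of the Prog-like Sox9, EpCAM-high Sox9 and Tumor Sox9 lists; whiskers are exact 95% intervals. The Prog-like regions stand at 79.0% in the Prog-like Sox9 list and at 4.63% in the Tumor list, the EpCAM-high regions at 56.9% in the EpCAM-high Sox9 list and at 22.3% in the Tumor list.

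Support was higher for stronger regions. The strongest of 10 equal parts of the Prog-like regions was found in the Prog-like Sox9 list in 99.9% of cases and the weakest in 23.3%. The strongest part of the EpCAM-high regions was found in the EpCAM-high Sox9 list in 98.3% of cases and the weakest in 6.58%. EpCAM-high regions at gene ends were found there in 73.9% of cases, those in gene bodies in 63.5% and those between genes in 50.3%. With −log10 q of 5 or more in the CK19 lists, and the Sox9 list left whole, the shares were 85.7%, 78.2% and 75.01%. The gap between gene ends and the space between genes was thus smaller among strong peaks. The Prog-like regions varied less by place, with 78.0% at gene ends, 79.3% in gene bodies and 78.8% between genes found in the Prog-like Sox9 list.

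The strongest regions without any peak of the other list were all held by the Sox9 list of the same name. For the Prog-like list they lay at the end of Mroh2a (chr1:88226764-88227856), 8.86 kb from Agtr1b, 16.3 kb from Robo2, in Cntnap2 and in Rufy3, with −log10 q between 463 and 516. For the EpCAM-high list they lay 44.0 kb from Nrip1 (chr16:76242719-76243389), in Mrc1, 191 kb from Tcf4, 17.8 kb from Rnf180 and 18.7 kb from Map2k6, with −log10 q between 248 and 302. The regions near Nrip1 and Rnf180 were also in the Tumor list. The Mrc1 region (chr2:14258259-14258757) is 1 of the 4 EpCAM-high peaks at that gene, whose end peak was in the Prog-like list alone.

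At gene ends, 1423 genes (6.50%) had a peak in the Prog-like list alone, 1520 (6.95%) in the EpCAM-high list alone, 11133 (50.9%) in both and 7807 (35.7%) in neither. At equal length 5.36% were of the Prog-like list alone, 9.93% of the EpCAM-high list alone and 47.9% in both. Counted at the starts of the promoter table, 5.11% of 17491 genes were of the Prog-like list alone, 6.57% of the EpCAM-high list alone and 52.9% in both. Of the 1423 Prog-like genes, 1154 (81.1%) had an end peak in the Prog-like Sox9 list and 271 in the EpCAM-high Sox9 list. Of the 1520 EpCAM-high genes, 59 had one in the Prog-like Sox9 list and 1152 (75.8%) in the EpCAM-high Sox9 list. A wider measure, the peaks in a gene and 10 kb to either side (its locus), was higher in the Prog-like list for 42.5% of all genes and in the EpCAM-high list for 20.6%. At equal length these shares were 34.6% and 25.9%, and the median difference over all genes was 0 under both.

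**Figure D4:**
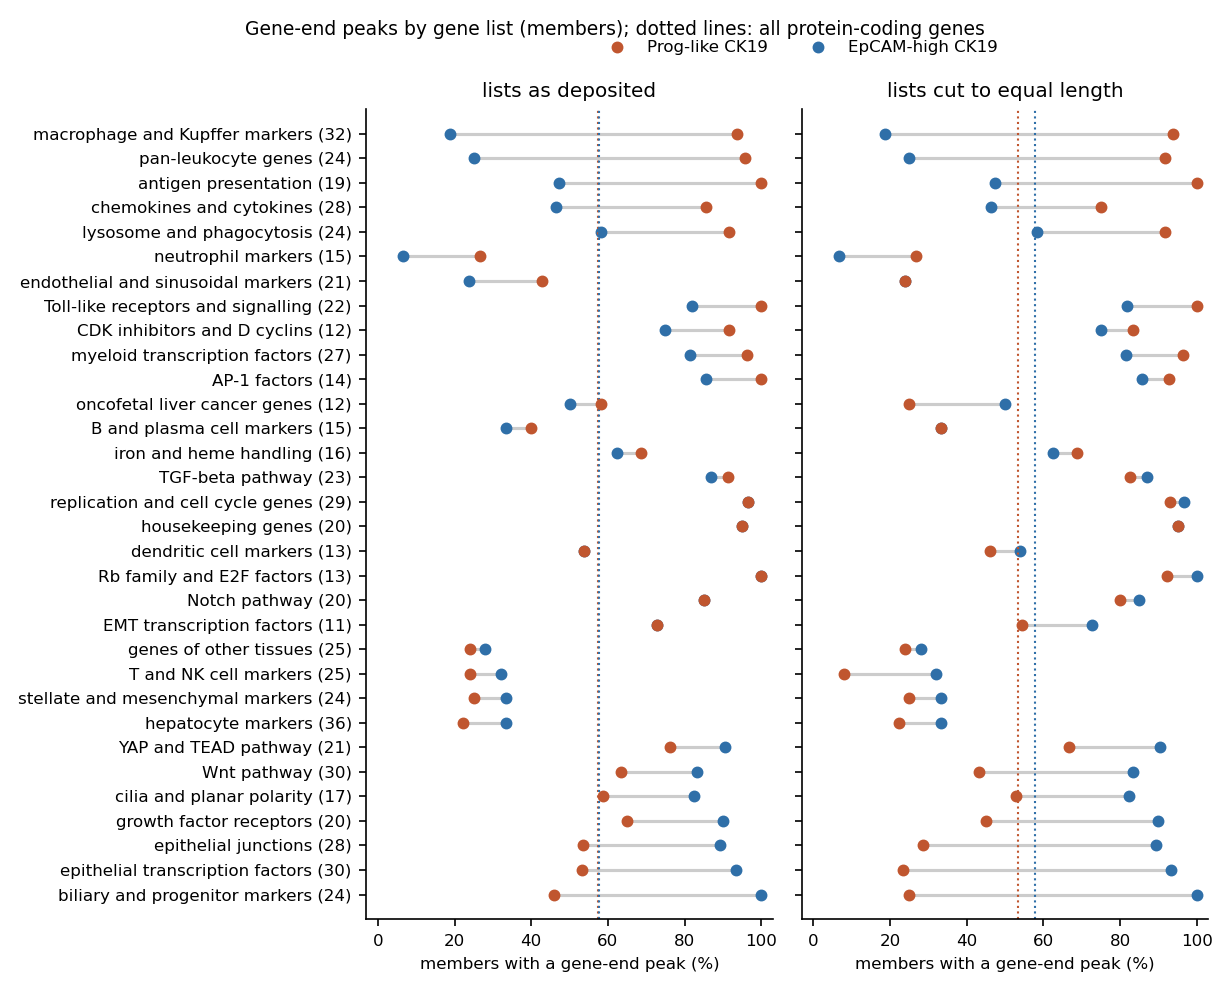
Share (%) of the members of 32 gene lists (number of members in brackets) with a peak within 1000 bp of a gene end in the Prog-like and in the EpCAM-high CK19 list, as deposited (left) and at equal length (right); dotted lines mark all protein-coding genes. The macrophage list stands at 93.8% in the Prog-like and 18.8% in the EpCAM-high list, the biliary list at 45.8% and 100%.

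Macrophage and Kupffer cell genes were open in the Prog-like list. Of the 32 members, 24 had an end peak in that list alone, 0 in the EpCAM-high list alone, 6 in both and 2 in neither. All 32 had more locus peaks in the Prog-like list, with a median difference of 6, and their loci held 225 Prog-like and 34 EpCAM-high peaks. Among scavenger and uptake receptors, Vsig4 had 14 Prog-like and 0 EpCAM-high locus peaks, Timd4, which binds dying cells, 11 and 0, and Cd163, the receptor for haemoglobin bound to haptoglobin, 9 and 0. Mrc1 had 17 and 4, and Msr1, a receptor for modified lipoproteins, 14 and 2.

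The surface genes used to tell these cells apart lay on the same side. Adgre1, which encodes F4/80, had 8 Prog-like and 0 EpCAM-high locus peaks, Csf1r, the receptor macrophages need to survive, 8 and 0, and Clec4f, a lectin of Kupffer cells, 6 and 0. In the Sox9 lists Adgre1 had 5 and 0, Csf1r 8 and 3, and Clec4f 7 and 0. The loci of Vsig4, Adgre1 and Clec4f were thus without an EpCAM-high peak in either set.

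**Figure D5:**
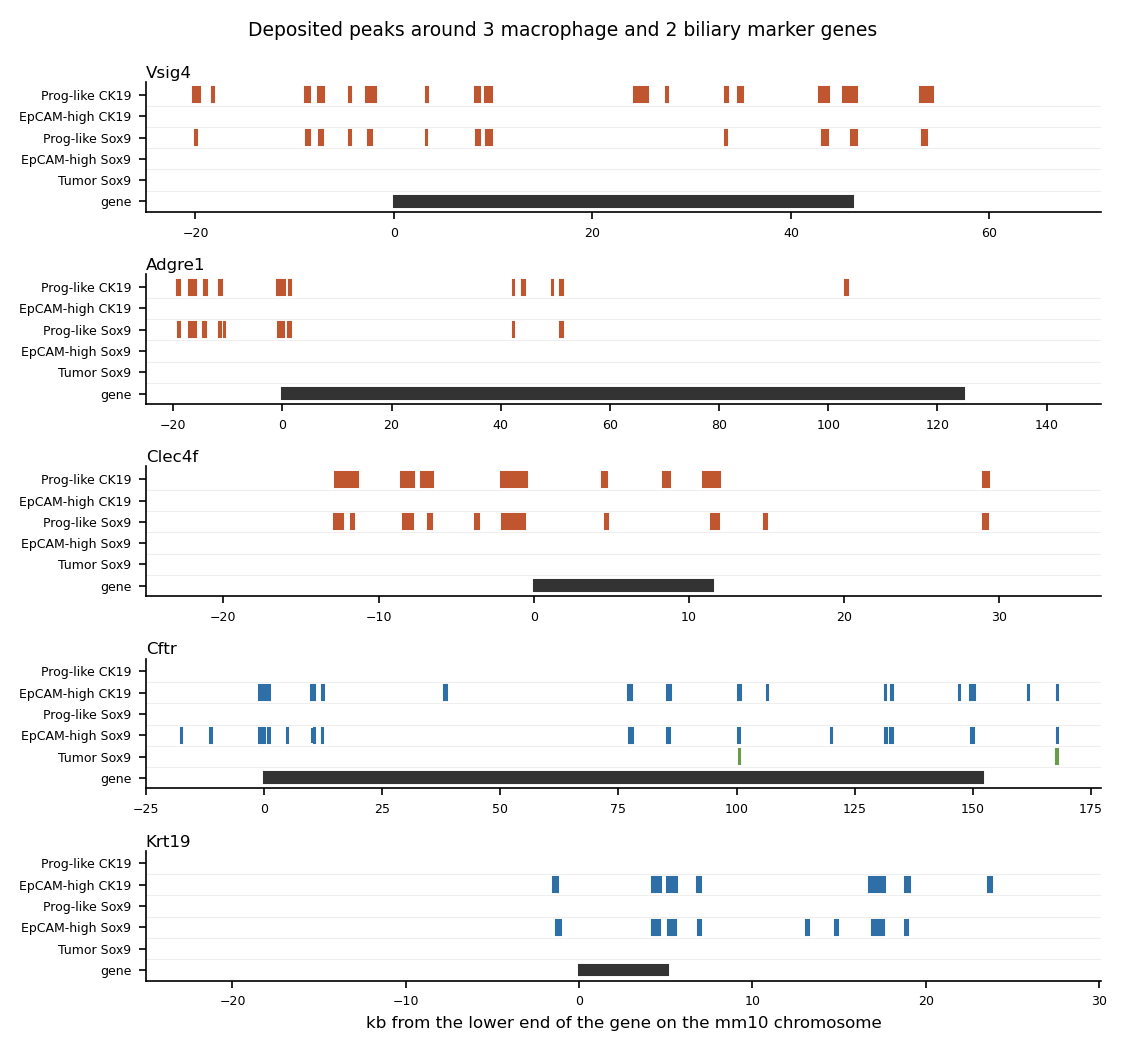
Peaks of the 5 lists (coloured blocks, 1 row per list) around the macrophage genes Vsig4, Adgre1 and Clec4f and the biliary genes Cftr and Krt19, in kb from the lower gene end, with the gene as a black bar and 25 kb shown to either side. Within 10 kb of the gene, Vsig4 has 14 Prog-like and 0 EpCAM-high CK19 peaks, and Cftr has 0 and 16.

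Myeloid transcription factor genes had open ends in both lists for most members. Of 27 members, 26 had an end peak in the Prog-like and 22 in the EpCAM-high list, and 4 (Cebpe, Runx1, Spic and Tfec) in the Prog-like list alone. Counted at the starts of the promoter table, 2 of 22 members (Spic and Tfec) were of the Prog-like list alone. Runx1 had a peak in both lists there. More locus peaks were found in the Prog-like list for 23 members and in the EpCAM-high list for 2. Spic, the factor of haem-recycling macrophages, had 3 Prog-like and 0 EpCAM-high locus peaks, Tfec 14 and 1, and Runx1 17 and 8. Spi1 had 7 and 1, and its end peaks lay at opposite ends of the gene, at chr2:91082276-91083351 in the Prog-like and at chr2:91115121-91115501 in the EpCAM-high list. Opposite ends of this kind were seen in 110 of the 11133 genes with end peaks in both lists.

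Genes of all leukocytes followed. Of 24 members, 23 had an end peak in the Prog-like and 6 in the EpCAM-high list, with 17 in the Prog-like list alone and 0 in the EpCAM-high list alone. More locus peaks were found in the Prog-like list for 23 members and in the EpCAM-high list for 1. Fyb had 19 Prog-like and 3 EpCAM-high locus peaks, Inpp5d 12 and 0, Lcp2, an adaptor below immune receptors, 11 and 0, and Cd53, a tetraspanin, 6 and 0. Ptprc, which encodes CD45, had 13 and 3 and an end peak in both lists. That end peak ranked at 16.4% from the top of the Prog-like list and at 29.2% from the top of the EpCAM-high list.

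Antigen presentation genes were open at all 19 ends in the Prog-like and at 9 in the EpCAM-high list, with 10 in the Prog-like list alone, and 18 had more locus peaks in the Prog-like and 1 in the EpCAM-high list. Ciita, the master regulator of MHC class II genes, had 15 Prog-like and 0 EpCAM-high locus peaks, and Cd86, a co-stimulator of T cells, 18 and 1. Cd74, the invariant chain, had 8 and 1, and H2-DMb1, which helps load peptides, 5 and 0. The 9 genes open in both lists were H2-K1, H2-D1, B2m, Tap1, Tap2 and Tapbp, which serve MHC class I, the class II genes H2-Ab1 and H2-DMa, and Cd274, which encodes the checkpoint ligand PD-L1.

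Toll-like receptor genes and their signalling partners had end peaks at all 22 members in the Prog-like and at 18 in the EpCAM-high list. The 4 genes of the Prog-like list alone were the receptors Tlr1, Tlr7, Tlr8 and Tlr13, with 5, 9, 9 and 8 Prog-like locus peaks against 0, 1, 1 and 0 EpCAM-high ones. Tlr7, Tlr8 and Tlr13 sense RNA in endosomes. Among 28 chemokine and cytokine genes, 13 had an end peak in the Prog-like list alone and 2 in the EpCAM-high list alone. Tnf had 7 Prog-like and 0 EpCAM-high locus peaks and Ccl4 7 and 0. On the other side, Il34, the second ligand of the receptor encoded by Csf1r, had 0 and 3, and Ccl20 had 0 and 1.

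Lysosome and phagocytosis genes had more locus peaks in the Prog-like list for all 24 members, and 8 had an end peak in that list alone. Ctss, a protease of antigen processing, had 6 Prog-like and 0 EpCAM-high locus peaks. Ncf4, a subunit of the phagocyte oxidase, had 5 and 0. Iron and haem genes had end peaks at 11 of 16 members in the Prog-like and at 10 in the EpCAM-high list, and 11 had more locus peaks in the Prog-like and 3 in the EpCAM-high list.

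Markers of other blood cells gave different readings at ends and over loci. Of 25 T and NK cell markers, 6 had an end peak in the Prog-like and 8 in the EpCAM-high list, and at equal length 2 and 8. Cd3e had no locus peak in either list. Of 15 B cell markers, 6 and 5 had an end peak (5 and 5 at equal length), of 15 neutrophil markers 4 and 1, and of 13 dendritic cell markers 7 and 7. Locus peaks were more numerous in the Prog-like list for 13 T and NK cell markers and in the EpCAM-high list for 7. The same counts were 11 and 2 for B cell, 10 and 0 for neutrophil and 11 and 1 for dendritic cell markers, whose loci held 80 Prog-like and 29 EpCAM-high peaks. At equal length they were 10 and 8 for T and NK cell, 8 and 5 for B cell, 10 and 0 for neutrophil and 10 and 1 for dendritic cell markers. In the neutrophil list S100a8 had 2 Prog-like and 0 EpCAM-high locus peaks, while Mpo and Ly6g had none in either list. Stellate and mesenchymal markers had end peaks at 6 of 24 members in the Prog-like and 8 in the EpCAM-high list, and Thy1, the surface protein of the sort, had no locus peak in any of the 5 lists. Endothelial markers had them at 9 and 5 of 21 members, and at 5 and 5 at equal length.

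Biliary genes made up the other side. Of 24 biliary and progenitor markers, 0 had an end peak in the Prog-like list alone, 13 in the EpCAM-high list alone and 11 in both. At equal length 6 were left in the Prog-like list and 24 in the EpCAM-high list, and 18 were of the EpCAM-high list alone. More locus peaks were found in the Prog-like list for 5 members and in the EpCAM-high list for 16, with 3 ties, and the loci held 55 Prog-like and 111 EpCAM-high peaks. Cftr had 0 Prog-like and 16 EpCAM-high locus peaks. Bicc1, an RNA-binding protein of the cilium pathway, had 1 and 8, and Krt23 0 and 5. Krt19 had 0 and 4 and Krt7 0 and 2, and in the Sox9 lists Krt19 had 0 and 6 and Krt7 0 and 4. The 5 members with more Prog-like locus peaks were Pkhd1, with 13 and 4, the stem cell surface gene Prom1, with 9 and 5, Muc1, with 4 and 3, and Epcam and Cd24a, with 3 and 2 each.

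At the 11 biliary genes open in both lists, the Prog-like end peaks ranked between 2.89% (Slc4a2) and 95.8% (Sox9) from the top of their list. The peak was farther from the top in the Prog-like list at 8 of them and in the EpCAM-high list at 3, and 5 were lost from the Prog-like list at equal length. The Epcam end peak ranked at 83.5% from the top of the Prog-like list and at 16.8% from the top of the EpCAM-high list, with −log10 q of 8.55 and 49.8. The Sox9 end peak, at 95.8% from the top of the Prog-like list, had −log10 q of 3.42 against 45.1 in the EpCAM-high list, and that of Cdh1, which encodes E-cadherin, ranked at 92.1% and 40.3%. All 3 fell below the equal-length cut of the Prog-like list. In the Prog-like Sox9 list, Epcam had 3 locus peaks, Sox9 0 and Cdh1 2, against 2, 3 and 9 in the EpCAM-high Sox9 list.

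Junction genes had end peaks at 15 of 28 members in the Prog-like and 25 in the EpCAM-high list, and at 8 and 25 at equal length. More locus peaks were found in the Prog-like list for 9 members and in the EpCAM-high list for 16. The 10 genes of the EpCAM-high list alone included the tight junction genes Marveld3, with 0 Prog-like and 5 EpCAM-high locus peaks, and Cldn3, with 0 and 2, and the desmosome gene Dsp, with 1 and 5. Epithelial transcription factor genes had end peaks at 16 of 30 members in the Prog-like and 28 in the EpCAM-high list, and at 7 and 28 at equal length, and 3 had more locus peaks in the Prog-like and 21 in the EpCAM-high list. Nr5a2 had 2 Prog-like and 19 EpCAM-high locus peaks, Tead1, a partner of YAP, 3 and 9, Cdx2, an intestinal factor, 0 and 5, and Onecut2 0 and 4. Grhl2, an activator of junction genes, had 4 and 6 with its end peak in the EpCAM-high list alone.

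Cilia and polarity genes had end peaks at 10 of 17 members in the Prog-like and 14 in the EpCAM-high list. Over their loci, 10 members had more peaks in the Prog-like and 6 in the EpCAM-high list as deposited, and 5 and 7 at equal length. Arl13b, a GTPase of the cilium, had 9 Prog-like and 7 EpCAM-high locus peaks and Cep290, a protein of the cilium base, 5 and 1, while Celsr1 had 2 and 8, Vangl1 0 and 4, and Pkd2, a cilium channel, 2 and 5. Pkhd1, the fibrocystin gene of the bile duct cilium, had its end peak in the EpCAM-high list alone, and in the Sox9 lists its locus held 7 and 8.

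Hepatocyte genes were mostly closed at their ends in both lists. Of 36 members, 8 had an end peak in the Prog-like and 12 in the EpCAM-high list, below the 57.4% and 57.8% of all genes. Alb had 0 Prog-like and 1 EpCAM-high locus peaks and Apoa1 0 and 1. Hnf4a had 5 and 5, with its end peak in the EpCAM-high list alone. F9, a clotting factor, had 5 and 0, and Asgr2 2 and 0, with end peaks in the Prog-like list alone. Afp, a fetal liver gene, had a single weak Prog-like end peak at 93.5% from the top, which was lost at equal length.

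Wnt pathway genes had end peaks at 19 of 30 members in the Prog-like and 25 in the EpCAM-high list, with 0 in the Prog-like list alone and 6 in the EpCAM-high list alone. Those 6 include the ligand genes Wnt5a, with 0 Prog-like and 5 EpCAM-high locus peaks, Wnt7b, with 1 and 5, and Wnt7a, with 0 and 2, and the stem cell receptor gene Lgr5, with 1 and 5. Growth factor receptor genes had end peaks at 13 of 20 members in the Prog-like and 18 in the EpCAM-high list. Erbb4 had 4 and 15 locus peaks and Ddr1, a collagen receptor, 1 and 6.

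Notch genes had end peaks at 17 of 20 members in each list, TGF-beta genes at 21 and 20 of 23, AP-1 genes at 14 and 12 of 14, and YAP and TEAD genes at 16 and 19 of 21. More locus peaks were found in the Prog-like list for 11, 14, 10 and 9 of these members and in the EpCAM-high list for 7, 8, 2 and 9, in the same order. Tgfbr2, the type II TGF-beta receptor gene, had 19 Prog-like and 2 EpCAM-high locus peaks with its end open in both lists. Batf, an AP-1 factor of leukocytes, had 7 and 1. At equal length the counts were 16 and 17 of 20 Notch genes and 19 and 20 of 23 TGF-beta genes. The small Prog-like excess of TGF-beta genes thus turned round, under a cut that can lower the Prog-like counts only.

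Cell cycle genes had open ends in both lists. All 13 Rb family and E2F genes had an end peak in both lists, and so had 28 of 29 replication and cell cycle genes and 19 of 20 housekeeping genes. Of the 13 Rb family and E2F genes, 11 had more locus peaks in the Prog-like and 0 in the EpCAM-high list, and 10 and 0 at equal length. The counts were 14 and 3 for the replication and cell cycle genes (8 and 6 at equal length) and 15 and 2 for the housekeeping genes. Rb1 had 19 Prog-like and 7 EpCAM-high locus peaks, Rbl1 7 and 1 and Rbl2 8 and 3. The floxed parts of these genes were not located here, so neither their end peaks nor their locus peaks check the deletion. The Rbl1 end peak was weak in both lists, at 90.2% and 92.5% from the top.

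The shorter genes with the largest locus difference at equal length, taken genome-wide among genes under 100 kb, carried mostly open ends in both lists. For the Prog-like list they were Abhd12, Cd86, Snx30, Susd6, Tgfbr2, Wipf1, Cyfip1, Pcolce2, Arhgap25 and Ciita, of which Cd86, Arhgap25 and Ciita had an end peak in that list alone. Abhd12, a lipid hydrolase gene, had 19 Prog-like and 4 EpCAM-high locus peaks at equal length, and Wipf1, a regulator of actin in blood cells, 17 and 3. For the EpCAM-high list they included Gm44812, Hsd17b2, Car8, Hs3st1, Pawr, Tead4, Bcl11a and Pax8. Gm44812 had 0 and 12 at equal length, Hsd17b2, a steroid dehydrogenase gene, 1 and 12, and Pax8, a factor of kidney and thyroid, 1 and 9. All 20 genes of both groups had more locus peaks in the Sox9 list of the same name than in the other. The share of all genes with such a difference between the Sox9 lists was not counted, so this count has no background.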

How the data were processed

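ATAC-seq was run by the authors on sorted liver cells of 8 samples, and each condition came as 1 deposited MACS2 narrowPeak list, 5 in all. Per the submitters' processing notes the build was mm10 and the tools were Bowtie 1.1.2, MACS2, HOMER and deepTools, and no settings come with them in the sources used here. The deposited columns used were each peak's interval, its summit offset in bp, its fold enrichment as a ratio, and its −log10 p and −log10 q values as the authors' caller wrote them. All deposited peaks had −log10 q of at least 1.3, which is a q of 0.05. These values were used only to rank or cut peaks within a list. Whether samples were pooled before calling is not stated, depth is unknown, and a longer list can come from deeper sequencing.

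Peaks overlapping by 1 bp were merged with Python 3.11.15 (numpy 2.4.6, pandas 2.3.3, scipy 1.17.1), and the overlap code was tested on simulated intervals. The equal-length comparison kept the 56932 peaks of each list with the highest −log10 p, which is the whole EpCAM-high list. Genes are the 21883 protein-coding genes of RefSeq GRCm38.p6, and 663 of 666 entries of the 32 gene lists matched. Some of these genes are not reported here. Locus counts take peaks overlapping the gene or 10 kb to either side, and neighbouring genes can share peaks. Motifs were searched on both strands of 300 bp windows (250 bases before to 50 after the start), with 15 motifs in all.

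Genes are named by a fixed rule. It takes up to 5 members per gene list and direction with an end peak in 1 list alone, both as deposited and at equal length, by locus difference. It adds the 10 genes per direction under 100 kb with the largest locus difference at equal length, the 5 strongest regions per direction, and a set of marker genes whatever their values. Other members are named where a list's genes are enumerated, after their values were seen. The comparison, the gene lists and the rule were chosen with earlier results of these data known. Peak starts were to be counted at gene starts, but the annotation gives no strand, so either gene end was used, and the RefSeq promoter starts (17491 genes) were added as an alternative after seeing the files, as were the microRNA hairpins.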

Additional observations from a re-analysis of the deposited data

Results flagged for a closer look

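The gene-end call of Tg, the thyroglobulin gene listed among genes of other tissues, went opposite ways in the 2 sets. In the CK19 set the call was −1 for Prog-like minus EpCAM-high (no Prog-like end peak and an EpCAM-high one, chr15:66851540-66851847), and in the Sox9 set it was 1 (a Prog-like end peak, chr15:66851546-66851700, and no EpCAM-high one). The difference between the sets was not tested, and the peaks of both sets lie at the same place. The Tg locus held 31 Prog-like and 5 EpCAM-high CK19 peaks, and 14 and 2 of these lay at Sla, a leukocyte adaptor gene inside the Tg interval. Genome-wide, 52 genes had opposite end calls in the sets, 43 of them with the Prog-like call in the CK19 set and 9 with the EpCAM-high call. Against these, 926 genes had the Prog-like call and 1102 the EpCAM-high call in both sets. Most of the 43 lost their Prog-like end peak at equal length, a cut that leaves the EpCAM-high list whole.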

How the results depend on the processing

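No paired analysis was possible because each condition came as 1 peak list that carries no replicate number, and for the same reason no replicate could be left out. At equal length, 40.4% of the regions were of the Prog-like list alone, 40.1% of the EpCAM-high list alone and 19.5% in both. Keeping only −log10 q of at least 5, the shares were 51.7%, 27.3% and 21.0%, and with 300 bp summit windows 47.8%, 34.6% and 17.6%. With an overlap of 50% of either peak, 33.5% were of the EpCAM-high list alone and 19.4% in both, and on autosomes alone no share moved.

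The share of EpCAM-high regions between genes was 53.9% at equal length, 49.7% with that q minimum, 53.5% with summit windows and 53.4% with a 2500 bp window, and that of Prog-like regions was 40.3% with the 2500 bp window. At gene ends, Prog-like regions stood at 6.20% with the q minimum, 6.49% with summit windows and 11.6% with 2500 bp, and EpCAM-high regions at 7.95%, 7.88% and 10.3%, and at 7.79% at equal length. Prog-like regions were thus below EpCAM-high regions at gene ends in the main setting and above them with the 2500 bp window.

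With the q minimum set for the Sox9 lists too, support of the Prog-like regions in the Prog-like Sox9 list was 81.5%. Support of the EpCAM-high regions in the EpCAM-high Sox9 list was then 70.4%. With the minimum on the CK19 lists alone, the shares were 84.5% for Prog-like and 77.2% for EpCAM-high regions. With all lists cut to 39644 peaks they were 85.7% and 67.9%. The EpCAM-high share was 56.1% with an overlap of 50%. With promoter-table starts, 894 of 17491 genes were of the Prog-like list alone, and 2 macrophage markers had an EpCAM-high start peak. At equal length 6 biliary markers had a Prog-like end peak, and with a flank of 50 kb the median locus difference was 13 for macrophage and −4 for biliary markers. Genes were named in part for keeping their call at equal length, so that setting is no check of them. Of the 128 named genes with an end peak in 1 list, 122 had the same call with the q minimum, 121 with summit windows and 111 with the 2500 bp window, as had 73 of 85 with promoter-table starts, and none was reversed in these settings. Weak peaks limit the comparison, since their support in the Sox9 lists was low, and the cause of these shifts was not tested.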

Other observations

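Among the remaining gene lists, EMT factor genes had end peaks at 8 of 11 members in each list, and at 6 in the Prog-like and 8 in the EpCAM-high list at equal length. Zeb1, a repressor of epithelial genes and a target of the miR-200 family, had 8 Prog-like and 3 EpCAM-high locus peaks, with its end peak in the EpCAM-high list alone. CDK inhibitor and D cyclin genes had end peaks at 11 of 12 members in the Prog-like and 9 in the EpCAM-high list, and Cdk6, a kinase of early G1, had 20 and 10 locus peaks. Oncofetal liver cancer genes had them at 7 and 6 of 12 members, and at 3 and 6 at equal length. Genes of other tissues had end peaks at 6 and 7 of 25 members, below the shares of all genes.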
